A study of Mus musculus with 15 samples.

Results

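Kidneys and lungs of mice with an obstructed ureter were compared with each other on Illumina mouse expression arrays. The members are the 2 kidneys made fibrotic by unilateral ureteral obstruction (UUO, surgical closure of the ureter of 1 kidney) and the 3 lungs taken from mice that had the same operation, which are 5 of the 14 samples and 6 of the 15 arrays of the series. They were chosen by their labels alone. UUO kidney 1 came from mouse H656 and UUO kidney 2 from mouse H658. The lungs of UUO mice came from mice H657, H658 and H660, so that only H658 gave both organs, and for its lung the mean of 2 arrays was taken. All mice were BALB/c. The reference for how far the organs differ without obstruction was the difference between 3 healthy kidneys and 3 healthy lungs, with 3 healthy mice (H557, H563 and H565) giving 1 of each. The labels give no sham operation, age, sex or time since surgery, and they do not name the other kidney of the operated mice. A further 3 lungs made fibrotic by bleomycin entered the fit only to share its estimate of the spread. The series title concerns claudins, blood vessels and the organs to which tumours spread, and the comparison asks which transcripts separated the 2 organs in obstructed mice and where that separation differed from the one in healthy mice.

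The kidney filters blood in the glomerulus and recovers water, salts, sugars, amino acids and phosphate along a tubule of successive segments, each with its own transporters. The lung exchanges gas across a thin layer of alveolar type 1 cells and a dense capillary bed, while alveolar type 2 cells make surfactant, and club and ciliated cells line the airways. Obstruction of the ureter is a standard model of kidney fibrosis in which tubule cells are injured, immune cells enter and fibroblasts deposit matrix. The operation is done on the kidney, and the lung of the same mouse is then a distant organ.

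Values are normalised log2 intensities, and a difference is the mean of the UUO kidneys minus the mean of the lungs of UUO mice ± its standard error from the limma fit, with the p-value adjusted over all genes. Where a probe was at background in every sample of the dimmer group the difference is given as a lower bound, at least N-fold. Intensities of different genes are not compared, because they depend on the probe. In bulk tissue, fewer cells of a type and less RNA per cell cannot be told apart. Between 34.8% and 36.8% of the probes were above background on the 6 arrays. All 5 samples carried Xist, the transcript that marks female cells, above background (10.72 and 10.44 in UUO kidneys and 11.70, 11.24 and 11.24 in lungs of UUO mice), with the Y-linked Eif2s3y at background (4.37 to 4.48), and all 6 healthy samples showed the reverse, with Eif2s3y between 8.94 and 9.64. The organ comparison in UUO mice therefore lies within 1 sex pattern, whereas obstruction and sex cannot be told apart wherever UUO mice are set against healthy mice.

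Of 11648 genes tested, 5874 (50.4%) differed between UUO kidneys and lungs of UUO mice at an adjusted p under 0.05, 2869 higher (24.6%) and 3005 lower (25.8%) in the kidney. By more than 8-fold, 280 genes were higher and 246 lower. In healthy mice 7762 genes (66.6%) differed between the organs, 3469 higher (29.8%) and 4293 lower (36.9%) in the kidney, and by more than 8-fold 419 were higher and 530 lower. These counts rest on 2 kidneys in UUO mice and 3 in healthy mice, so they are not a measure of which organs lay further apart. The samples of the 2 organs did not overlap for 7435 genes (63.8%) in UUO mice. The direction of the called genes depended on the scaling of the arrays: 48.8% of them were higher in the UUO kidney after quantile normalization, against 73.0% after median scaling and 68.5% when the deposited matrix was used, as the median difference over all genes moved to 0.34 and 0.26, against -0.04. The counts of a gene list are to be read against 24.6% and 25.8%, and list medians against -0.04. With 1 mouse giving both organs no paired test was possible, but within mouse H658 the kidney minus lung difference had the sign of the group difference for 5857 of the 5874 called genes (99.7%), a description that shares its samples with the test.

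The genes furthest above the lung in the UUO kidney were products of kidney tubules. Umod, which encodes uromodulin, the most abundant urinary protein and a product of the thick ascending limb, had values of 14.28 and 14.47 in UUO kidneys and 4.64, 4.55 and 4.54 in lungs of UUO mice, at least 472-fold higher (adjusted p = 3.27e-06). Slc34a1, the sodium-phosphate cotransporter of the proximal tubule, had 14.46 and 13.25 in UUO kidneys and 4.54, 4.60 and 4.55 in lungs, at least 330-fold higher (adjusted p = 2.23e-06). Guca2b, which encodes uroguanylin, a peptide that promotes salt excretion, had 12.66 and 12.66 in UUO kidneys and 4.30, 4.49 and 4.36 in lungs, at least 144-fold higher (adjusted p = 3.64e-09). For these genes every lung was at background, and the 2 kidneys were closest to each other for Guca2b and furthest apart for Slc34a1, which was higher in UUO kidney 1. The trypsin inhibitor gene Spink1 was at least 397-fold higher, the steroid dehydrogenase gene Hsd3b4 at least 164-fold and Wfdc15b at least 139-fold. Kallikreins Klk1, Klk1b26 and Klk1b5 were at least 188-fold, 192-fold and 166-fold higher, but they are close copies of one another, so their probes may share transcripts. Keg1 had 13.85 and 13.51 in UUO kidneys and 5.93, 4.30 and 4.28 in lungs, a difference of 8.85 ± 1.61 (adjusted p = 6.87e-04), and its highest lung was the 1 of the 3 that carried liver transcripts.

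The promoters of 3 of these genes are shown because each holds the core of the element bound by hepatocyte nuclear factor 1 (HNF1), a regulator of kidney tubule and liver genes. They are the 250 bases before the RefSeq start on the gene's strand (GRCm38.p6), with matches to GTTAAT on either strand in capitals. Umod, chr7:119479263-119479512, minus strand, 1 match:
Umod: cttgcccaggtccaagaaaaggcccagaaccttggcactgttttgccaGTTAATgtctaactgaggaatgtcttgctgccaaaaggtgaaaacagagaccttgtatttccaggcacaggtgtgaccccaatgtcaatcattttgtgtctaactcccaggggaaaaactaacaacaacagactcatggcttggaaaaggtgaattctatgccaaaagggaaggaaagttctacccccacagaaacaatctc
Slc34a1, chr13:55399398-55399647, plus strand, 2 matches:
Slc34a1: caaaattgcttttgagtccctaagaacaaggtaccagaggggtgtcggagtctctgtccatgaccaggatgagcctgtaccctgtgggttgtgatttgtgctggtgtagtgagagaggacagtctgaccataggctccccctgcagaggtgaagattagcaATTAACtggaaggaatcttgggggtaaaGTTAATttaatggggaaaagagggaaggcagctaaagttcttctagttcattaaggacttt
Guca2b, chr4:119658946-119659195, minus strand, 1 match:
Guca2b: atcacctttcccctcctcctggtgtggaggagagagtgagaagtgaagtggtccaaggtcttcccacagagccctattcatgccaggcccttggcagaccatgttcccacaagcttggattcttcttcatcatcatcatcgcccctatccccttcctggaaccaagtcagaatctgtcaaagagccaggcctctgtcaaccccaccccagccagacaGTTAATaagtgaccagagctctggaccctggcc
The core lay 33 bases before the start in Guca2b, 89 and 61 bases in Slc34a1 and 202 bases in Umod, counted to its first base.

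Among genes more than 8-fold higher in the UUO kidney, 44 of the 215 with a RefSeq promoter (20.5%) held GTTAAT within those 250 bases, compared with 9 of 186 (4.84%) among genes more than 8-fold lower, 5.38% of the tested genes and 7.49% of all genes with a promoter. For the lung, GTTGCC, the half-site of RFX factors that act in ciliated cells, was in 12.6% of promoters of the kidney genes, 23.1% of those of the lung genes and 12.3% of those tested. The core CTCAAG of NKX2-1, a regulator of lung epithelium, was in 14.9%, 15.1% and 14.9% in the same order. In all 14 strings were searched on both strands, the others being a longer form of the HNF1 element, CAAAGTNCA and its exact form CAAAGTCCA (HNF4), a longer NKX2-1 core (CACTCAAG), TGTTTAC (FOXA factors), a longer RFX site (GTTGCCATG), TGACTCA (the site of AP-1), CAGGAAGT (ETS), AGATAA (zinc finger factors named after its core), GGGTGTGG (KLF factors) and TCAAGGTCA (estrogen-related receptors), and some of them overlap. They were chosen with matches in these promoters known, the genes were chosen by their difference, and a match is a description of letters, not a site. Cldn18, a lung gene, also holds GTTAAT before 1 of its 2 starts.

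At the other end stood genes of the distal lung. Cxcl15, a chemokine made by lung epithelium, had 4.91 and 4.51 in UUO kidneys and 13.14, 12.94 and 13.03 in lungs of UUO mice, at least 189-fold lower in the kidney (adjusted p = 2.00e-10). The surfactant protein gene Sftpb had 4.82 and 5.27 in UUO kidneys, against 11.78, 12.28 and 12.23 in lungs, a difference of -7.05 ± 0.19 (adjusted p = 2.60e-10), and Sftpa1 differed by -7.62 ± 0.30. Cldn18, the claudin of alveolar epithelium, had 4.62 and 4.76 in UUO kidneys and 12.02, 12.25 and 11.95 in lungs, at least 97-fold lower. No UUO kidney came near any lung for these genes. Cyp2f2, a cytochrome P450 of club cells, differed by -7.44 ± 0.30, Cyp2b10 by -7.55 ± 0.42, Sec14l3 by -6.99 ± 0.22, the anchoring protein gene Akap5 by -7.01 ± 0.28 and the aldehyde oxidase gene Aox3 by -6.68 ± 0.32. Fam183b, a gene of motile cilia, was at least 85.2-fold lower in the UUO kidney.

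**Figure D1:**
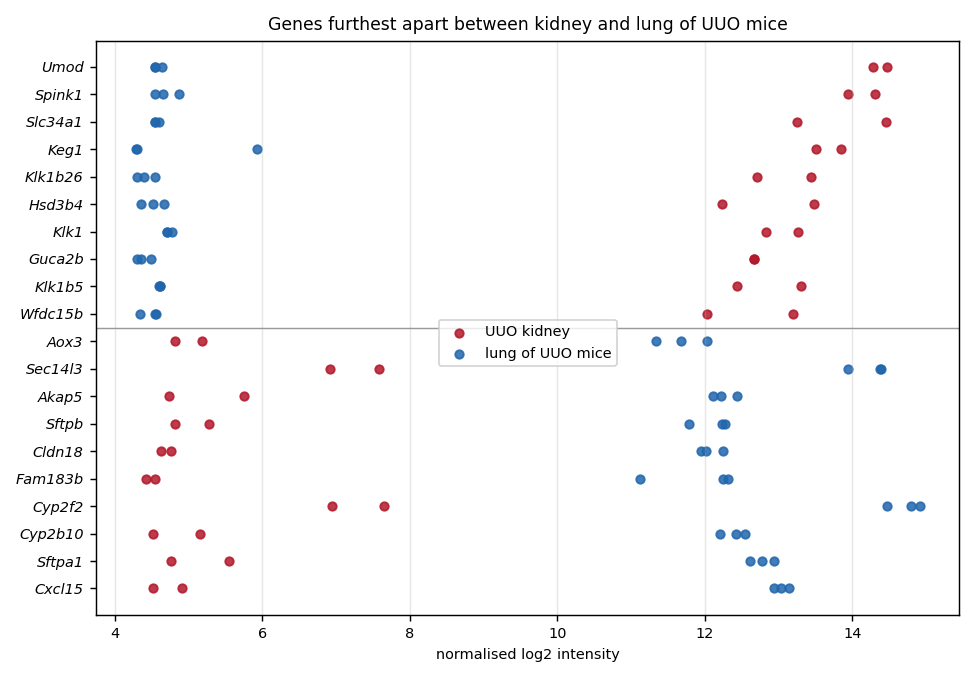
Normalised log2 intensity of each UUO kidney (red) and each lung of UUO mice (blue) for the 10 genes with the largest and the 10 with the smallest difference that passed the test, did not overlap and were above background in the brighter organ. Points are single mice, and every gene shows a wide gap between the organs, with Umod between 14.28 and 14.47 in the kidneys and 4.54 and 4.64 in the lungs.

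Marker lists placed both organs where their labels put them. Of 24 measured proximal tubule markers 18 were higher and 2 lower in UUO kidneys (median difference 4.10), and of 23 markers of the loop, distal tubule and collecting duct 16 were higher and 4 lower (median 3.13). Slc22a6, the organic anion transporter OAT1, had 10.54 and 9.51 in UUO kidneys and 4.47, 4.35 and 4.37 in lungs, at least 23.1-fold higher, and the lactate transporter gene Slc5a12 was at least 21.1-fold higher. Cldn16 and Cldn19, the paired claudins of the thick ascending limb that pass magnesium and calcium, were at least 15-fold and 4.04-fold higher. The 2 lower proximal markers were Cyp4b1 (-2.10 ± 0.22) and the water channel gene Aqp1 (-1.21 ± 0.21, and -0.77 without UUO kidney 2), both also expressed in the lung, and the lower distal markers included the sodium channel subunit genes Scnn1a (-1.72 ± 0.24) and Scnn1g (-2.10 ± 0.29). Of 8 podocyte markers 2 were higher and 3 lower. Nphs1, which encodes nephrin of the slit diaphragm, was at least 1.31-fold higher, Nes, an intermediate filament gene, was higher by 1.09 ± 0.20, and Clic3 and Cdkn1c were lower (-4.55 and -1.22). Without UUO kidney 1 Nphs1 no longer passed (adjusted p = 0.0635).

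On the lung side 17 of 19 alveolar type 1 markers were lower in the UUO kidney and none was higher (median -3.84), as were 16 of 17 alveolar type 2 markers (median -4.89), 7 of 14 club and airway secretory markers (median -2.18) and 13 of 13 cilia markers (median -3.62). Ager, a receptor abundant on type 1 cells, had 7.59 and 6.47 in UUO kidneys and 13.16, 13.23 and 13.43 in lungs, a difference of -6.24 ± 0.32. Napsa, which encodes an aspartic protease present in both type 2 cells and proximal tubule, was the single type 2 marker that was higher in the UUO kidney (14.67 and 14.48 there and 12.07, 12.68 and 12.42 in lungs, 2.19 ± 0.20). The airway carbonyl reductase gene Cbr2 differed by -6.31 ± 0.19, and the cilia genes Tppp3 and Dynlrb2 by -5.08 ± 0.27 and -5.67 ± 0.46. Cilia markers were thus lower throughout the list, although kidney tubules carry single, non-motile cilia.

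Some lung transcripts were nevertheless present in UUO kidneys. Scgb1a1, the secretoglobin of club cells, had 12.35 and 11.23 in UUO kidneys and 15, 14.78 and 15.03 in lungs of UUO mice, compared with 4.49, 4.47 and 4.36 in healthy kidneys and 14.26, 14.72 and 14.55 in healthy lungs. Its organ difference was -3.15 ± 0.26 in UUO mice, in healthy mice it was at least 433.5-fold lower in the kidney, and the change between them was at least 48.9-fold (adjusted p = 4.33e-07). Sftpc, surfactant protein C of type 2 cells, had 9.11 and 7.63 in UUO kidneys and 14.26, 13.99 and 14.23 in lungs of UUO mice, compared with 4.56, 4.54 and 4.36 in healthy kidneys and 14.03, 13.87 and 13.92 in healthy lungs. Both UUO kidneys were above background for these transcripts and all healthy kidneys were at background. Of 50 measured markers of lung epithelium, 31 were above background in both UUO kidneys, a smaller share than the 9156 of all 11648 tested genes. Of these 31, 5 were at background in every healthy kidney, namely Scgb1a1, Sftpc, Sftpd, the phosphate transporter gene Slc34a2 and Igfbp2. The like count over all tested genes was not made, so the 5 do not show whether lung markers were unusual in this. The linear intensity of Scgb1a1 was 16.6% and 7.64% of the mean of the lungs of UUO mice in UUO kidneys 1 and 2, that of Sftpc 3.00% and 1.08%, and that of Sftpd 2.73% and 1.61%. Igfbp2 stood at 9.32% and 4.19%, whereas Slc34a2 ran the other way between the kidneys, at 5.16% and 16.1%. The shares of other markers ranged widely, with Cyp2f2 at 0.73% and 0.448% and Lyz1, by its main probe, at 52.0% and 38.7%. Lyz1 is also on the macrophage list, and its shares depend on the probe. Its organ difference in UUO mice was -1.15 by the main probe and -3.27 and -5.37 by its other probes. The part of lung RNA in the UUO kidney samples was not tested. Sftpd and Igfbp2 were named after their values were seen.

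Transcription factors that lay out the body plan separated the organs. Of 34 measured organ transcription factors 17 were higher and 12 lower in UUO kidneys. Homeobox genes of the posterior body led the kidney side: Hoxd10 had 10.71 and 9.79 in UUO kidneys and 4.56, 4.52 and 4.50 in lungs (at least 27.1-fold higher), and Hoxd8, Hoxd9 and Hoxc9 were at least 27.6-fold, 17.4-fold and 11.4-fold higher. Tfap2b, a factor of the distal nephron, was at least 13.5-fold higher. Tbx4, a mesenchymal factor of the lung, had 4.68 and 4.61 in UUO kidneys, against 10.71, 10.64 and 10.61 in lungs, at least 36.1-fold lower in the kidney. Nkx2-1, the lung epithelial regulator, was at least 29.9-fold lower, Foxf1 of the lung mesenchyme at least 8.1-fold lower, and Foxa1 lower (-3.50). The lungs of UUO mice were at background for all 5 kidney factors named, and both UUO kidneys for Tbx4, Nkx2-1 and Foxf1.

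Genes of transport and of mitochondrial energy supply were higher in the UUO kidney as groups. Of 28 measured carriers of amino acids, sugars and phosphate 23 were higher and 2 lower (median 3.03), and of 16 members of the SLC22 family of organic ion carriers 11 were higher and 1 lower (median 1.62). Slc5a10, a mannose and fructose carrier, had 10.75 and 10.76 in UUO kidneys and 4.38, 4.43 and 4.37 in lungs, at least 38.4-fold higher, and Slc22a19 was at least 10.4-fold higher. Slc34a2, the lung counterpart of Slc34a1, was lower (6.77 and 8.41 in UUO kidneys, 10.78, 11.24 and 11.09 in lungs, -3.44 ± 0.39). The SLC22 member Slc22a23 (-0.85) and the amino acid carrier subunit Slc3a2 (at least 1.31-fold lower) were also lower. Each of them failed to pass in at least 1 comparison that left out a UUO kidney (adjusted p = 0.136 for Slc22a23 without kidney 2, and 0.0852 and 0.073 for Slc3a2 without kidneys 1 and 2). Of 10 aquaporins 4 were higher and 2 lower. Aqp2, the vasopressin-regulated water channel of the collecting duct, was at least 20.8-fold higher and Aqp3 at least 7.9-fold higher, while Aqp5 of alveolar cells was lower (-6.39).

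All 34 respiratory chain subunits that passed, of 38 measured, were higher in the UUO kidney (median 1.16), as were 17 of 25 fatty acid oxidation genes with none lower (median 0.98), 12 of 16 glycolysis genes with 1 lower (median 1.51) and 5 of 6 gluconeogenesis genes. Cyc1, a cytochrome of complex III, had 11.87 and 11.63 in UUO kidneys and 9.40, 9.78 and 9.15 in lungs (2.31 ± 0.18, adjusted p = 8.09e-07), and the ATP synthase subunit gene Atp5d had 12.10 and 11.71 in UUO kidneys and 10.08, 9.92 and 9.77 in lungs (1.98 ± 0.15). Both kidneys were above all 3 lungs. Cyp4a14, a fatty acid hydroxylase, was at least 49.1-fold higher, the peroxisomal gene Ehhadh higher by 2.81, the glycolytic genes Pgk1 and Tpi1 by 1.83 and 1.60, and the gluconeogenic genes Ldhb and Slc37a4 by 1.65 and 2.06, whereas the leukocyte hexokinase gene Hk3 was lower (-1.59, and -0.90 without UUO kidney 1). Of 25 cytochrome P450 genes 9 were higher and 5 lower. Cyp24a1, which inactivates vitamin D, was higher by 6.05 ± 0.25, and of 11 renin-angiotensin and kidney hormone genes 8 were higher, with the anti-ageing hormone gene Kl at least 35.4-fold higher. Ace, the angiotensin-converting enzyme abundant on lung capillaries, was the 1 that was lower (8.37 and 8.35 in UUO kidneys, 12.47, 12.54 and 12.86 in lungs, -4.27 ± 0.18).

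Claudins seal the space between neighbouring cells and set which ions pass there, and of 16 measured members 7 were higher and 4 lower in UUO kidneys. Cldn2, which forms a cation pore in the proximal tubule, had 12.41 and 12.17 in UUO kidneys and 5.47, 4.48 and 4.54 in lungs (7.46 ± 0.54, adjusted p = 4.19e-07). Cldn4, a claudin of the collecting duct, had 12.11 and 12.92 in UUO kidneys and 7.46, 6.48 and 7.18 in lungs (5.47 ± 0.49, adjusted p = 2.53e-06). Cldn1 differed by 3.36 ± 0.34, Cldn6 by 3.30 ± 0.26 and Cldn12 by 0.91 ± 0.14, all higher in the kidney. Cldn5, the claudin of blood vessels, had 9.03 and 8.29 in UUO kidneys and 13.32, 13.23 and 13.44 in lungs (-4.67 ± 0.21, adjusted p = 7.14e-09), so that its organs lay further apart than those of any other lower claudin except Cldn18. Cldn3 and Cldn23 were lower by smaller amounts (-0.85 ± 0.29 and -1.45 ± 0.41), and without UUO kidney 1 neither passed (differences -0.36 and -0.79, adjusted p = 0.339 and 0.159). Cldn3 was also not called without UUO lung 1 or 3 (adjusted p = 0.0768 and 0.0731). Cldn7 (0.64 ± 0.25), Cldn9 (-0.09 ± 0.19), Cldn10 (0.40 ± 0.32), Cldn11 (2.01 ± 1.01) and Cldn15 (0.23 ± 0.37) did not pass, with adjusted p between 0.0511 and 0.704. Cldn7 lay close to the threshold and was called in 9 of 23 other settings, in which its difference was 0.35 to 1.08 (lowest adjusted p = 0.00189, after median scaling). Cldn10 was not settled, because its 3 other probes gave 3.26 (adjusted p = 4.64e-07), 0.81 and -0.10, and its main probe was called after median scaling (1.01, adjusted p = 0.0186). Cldn11 was called when only the 2 groups entered the fit (adjusted p = 0.0286).

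Against the healthy organs, 4 claudins were further towards the kidney in UUO mice and 1 further towards the lung, where 16.6% and 11% of all genes were. Cldn4 had 8.24, 7.87 and 8.96 in healthy kidneys and 6.43, 6.92 and 5.21 in healthy lungs, and the change in organ difference was 3.30 ± 0.66 (adjusted p = 0.00319). Cldn3 had 9.29 and 10.25 in UUO kidneys and 10.82, 10.28 and 10.75 in lungs of UUO mice, with 7.03, 7.31 and 7.07 in healthy kidneys and 10.57, 10.52 and 10.10 in healthy lungs, a change of 2.41 ± 0.38 (adjusted p = 8.43e-04). For both, the 2 UUO kidneys lay above the 3 healthy kidneys while the lungs of the 2 sets of mice overlapped. Cldn1 changed by 2.23 ± 0.45 and Cldn6 by 1.83 ± 0.35 in the same direction, and Cldn10, by its main probe, by -1.58 ± 0.43 in the other, which without UUO kidney 2 had an adjusted p of 0.0909. Cldn5 and Cldn18 did not pass this test (changes 0.21 and -0.47, adjusted p = 0.614 and 0.193).

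**Figure D2:**
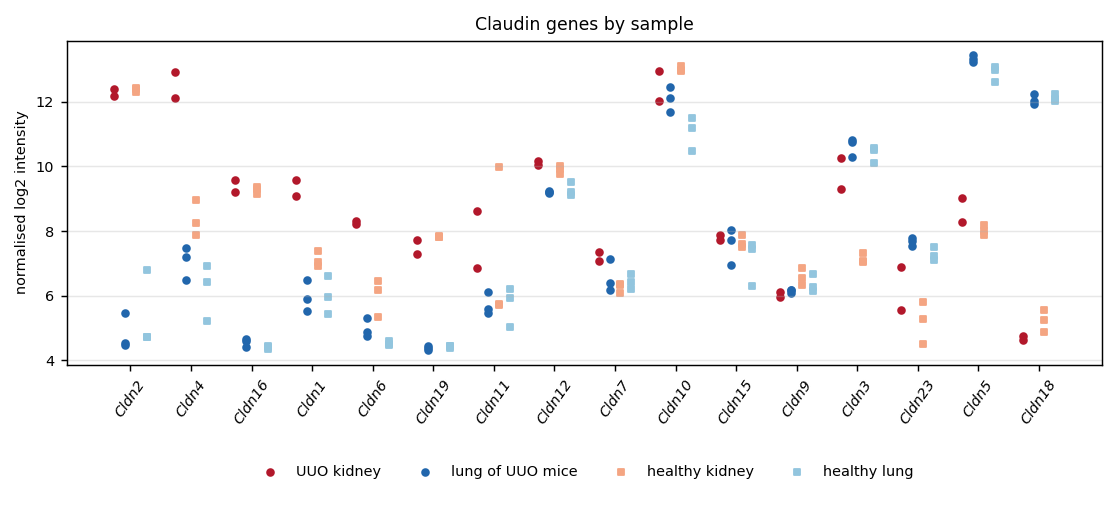
Normalised log2 intensity of the 16 measured claudins in UUO kidneys, lungs of UUO mice, healthy kidneys and healthy lungs, ordered by the difference in UUO mice. Points are single mice. Cldn2 and Cldn18 separate the organs in both sets of mice, and Cldn4 is at 12.11 and 12.92 in UUO kidneys and at 7.87 to 8.96 in healthy kidneys.

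Of 18 other tight junction genes 2 were higher and 7 lower in UUO kidneys. Marveld3 was higher (1.21 ± 0.17) and Pard6g, a cell polarity gene, lower (-2.65 ± 0.22). Tjp1, which encodes the scaffold ZO-1, had 7.17 and 6.77 in UUO kidneys and 8.39, 8.55 and 8.67 in lungs (-1.57 ± 0.19, adjusted p = 3.62e-05). Ocln, which encodes occludin, had 7.31 and 7.51 in UUO kidneys and 7.03, 7.12 and 7.11 in lungs and did not pass (0.32 ± 0.18, adjusted p = 0.148). Cgnl1 was higher by 0.63, and without UUO kidney 1 it did not pass (adjusted p = 0.145).

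Endothelial transcripts were lower in the UUO kidney across nearly the whole list. Of 23 pan-endothelial markers 20 were lower and 1 higher (median -2.44), and of 18 markers of lung vessels 16 were lower and 1 higher (median -2.09). Vwf, the clotting factor stored in endothelial cells, had 6.44 and 5.91 in UUO kidneys and 12.19, 12.57 and 12.63 in lungs (-6.29 ± 0.28, adjusted p = 7.09e-09). Pecam1 (CD31) had 8.43 and 8.75 in UUO kidneys and 10.70, 11.33 and 11.08 in lungs (-2.44 ± 0.21). Cdh5, the cadherin of endothelial junctions, had 7.52 and 8.22 in UUO kidneys and 11.40, 11.52 and 11.59 in lungs (-3.64 ± 0.21). Every lung lay above both kidneys for these 3 genes, and Tmem100, a gene of lung endothelium, differed by -6.17 ± 0.26. Emcn, endomucin of capillaries and veins, was the single member of both lists that was higher in the UUO kidney (11.51 and 11.74 there and 10.31, 10.46 and 10.45 in lungs, 1.22 ± 0.24). Of 11 markers of kidney endothelium 3 were higher and 4 lower (median -0.39, but 0.03 after median scaling), with Igfbp3 (2.18 ± 0.45) and the plasminogen activator gene Plat (2.19 ± 0.49) higher and Dram1 (-3.68 ± 0.20) lower. In healthy mice the pan-endothelial median was -2.93, with 20 of 23 lower, and 10 of the 23 had a higher kidney minus lung difference in UUO mice by the test and 1 a lower one, the higher ones including Cdh5 (1.33 ± 0.29, adjusted p = 0.00483) and Pecam1 (1.01 ± 0.28, adjusted p = 0.0189, and 0.0809 without UUO kidney 2).

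Of 33 measured genes of fibrillar collagens and other matrix, 11 were higher and 5 lower in UUO kidneys (median 0.25), compared with 1 higher and 24 lower in healthy kidneys (median -1.81), and 25 of the 33 had a higher organ difference in UUO mice by the test, with none lower. Fn1, fibronectin, had 9.28 and 10.16 in UUO kidneys and 7.56, 8.14 and 6.92 in lungs of UUO mice (2.18 ± 0.39, adjusted p = 5.68e-04), with 6.61, 6.61 and 6.85 in healthy kidneys and 9.18, 9.20 and 9.96 in healthy lungs (-2.76). The UUO kidneys lay above all healthy kidneys and the lungs of UUO mice below all healthy lungs, and the change in organ difference was 4.94 ± 0.52 (adjusted p = 6.01e-05). Col1a1, the main chain of collagen I, had 8.90 and 9.60 in UUO kidneys and 7.97, 7.54 and 7.31 in lungs of UUO mice (1.64 ± 0.44, adjusted p = 0.00863), against 4.71, 4.57 and 6.04 in healthy kidneys and 7.98, 8.03 and 7.93 in healthy lungs (-2.87), a change of 4.51 ± 0.60 (adjusted p = 2.69e-04). Without UUO kidney 2 its difference in UUO mice was 1.29 and did not pass (adjusted p = 0.0839). Thbs2 (3.32 ± 0.33) and Col18a1 (2.76 ± 0.26) were also higher in UUO kidneys. Elastin, the protein of stretchable tissue, was a lung transcript in UUO mice, with Eln at 7.07 and 6.48 in UUO kidneys and 9.32, 8.59 and 9.23 in lungs (-2.27 ± 0.31). Col6a1 was lower in UUO kidneys by its main probe (-1.07 ± 0.18), but not after median scaling (-0.54, adjusted p = 0.08), and its other probes gave -1.79 and -0.08 (adjusted p = 1.22e-05 and 0.757).

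Of 16 basement membrane genes 6 were higher and 3 lower in UUO kidneys, compared with 4 higher and 11 lower in healthy kidneys, and 12 shifted towards the kidney by the test and 2 towards the lung. Lama1, a laminin chain of the tubule, was at least 2.86-fold higher and Lamb1 at least 1.58-fold, whereas Lamc1 (-1.42) and Col4a5 (-1.26) were lower. A further probe of Col4a5 gave 0.28, and without UUO kidney 2 the gene did not pass (adjusted p = 0.0553). Of 22 myofibroblast and mural cell genes 4 were higher and 7 lower, against 1 and 18 in healthy mice. Acta2, which encodes the actin of smooth muscle and myofibroblasts, had 12.03 and 12.58 in UUO kidneys and 13.45, 12.15 and 13.14 in lungs of UUO mice, overlapping ranges (-0.61 ± 0.43, adjusted p = 0.262), with 10.21, 9.51 and 10.66 in healthy kidneys and 13.48, 13.34 and 12.34 in healthy lungs. Its 3 other probes gave 0.26, 0.65 and -0.89 and none passed (adjusted p from 0.0939 to 0.621), so its direction in UUO mice is not settled. Pdgfra, a fibroblast receptor, and Mcam of mural and endothelial cells were lower (-1.46 and -2.20), and Rgs5 of pericytes was at least 1.46-fold higher. Thy1 had 9.02 and 10.73 in UUO kidneys and 8.75, 8.29 and 8.35 in lungs (1.41 ± 0.44), but 0.56 without UUO kidney 2 (adjusted p = 0.293).

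Among 19 matrix proteases and inhibitors 8 were higher and 3 lower in UUO kidneys, compared with 2 and 12 in healthy kidneys. Plau, urokinase, had 13.23 and 13.26 in UUO kidneys and 9.05, 8.65 and 8.83 in lungs (4.40 ± 0.19, adjusted p = 4.64e-09). Adamts4 was at least 17.1-fold higher (7.70 and 11.53 in UUO kidneys), with a fitted difference of 2.70 without UUO kidney 2, while Timp2 and Adamts15 were lower (-1.81 and -2.38). Timp1, an inhibitor of matrix proteases, had 9.40 and 13.61 in UUO kidneys, 8.09, 9.07 and 8.18 in lungs of UUO mice, 4.31, 4.42 and 5.0 in healthy kidneys and 7.40, 8.07 and 7.05 in healthy lungs. Its difference in UUO mice was 3.05 ± 0.87 (adjusted p = 0.011), and without UUO kidney 2 it was 0.95 (adjusted p = 0.139), whereas the change from healthy mice was at least 28.1-fold and passed without either kidney.

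Of the gene lists described here, that of tubule injury and repair had the widest gap between its medians in the 2 sets of mice. Of 19 genes measured, 10 were higher and 1 lower in UUO kidneys (median 1.33), compared with 2 higher and 13 lower in healthy kidneys (median -2.60), and 14 had a higher organ difference in UUO mice by the test. Havcr1 (KIM-1), a receptor on injured proximal tubule, had 10.12 and 12.99 in UUO kidneys and 5.12, 4.98 and 4.96 in lungs (6.53 ± 0.61, adjusted p = 3.58e-06). Lcn2 (NGAL), an iron-binding protein released by injured tubules, had 11.17 and 14.78 in UUO kidneys and 8.38, 9.47 and 9.41 in lungs of UUO mice (3.89 ± 0.81, adjusted p = 0.00178), with 5.29, 5.66 and 6.55 in healthy kidneys and 9.50, 10.80 and 9.53 in healthy lungs (-4.11). Lcn2 was thus higher in the kidney than in the lung in UUO mice and lower in healthy mice, a change of 8.0 ± 1.09 (adjusted p = 3.21e-04), and its values in the 2 UUO kidneys were far apart, with differences of 5.69 and 2.09 when kidney 1 or kidney 2 was left out. Krt20, a keratin of injured tubule, had 8.47 and 11.14 in UUO kidneys and was at background in every lung of UUO mice and every healthy kidney, at least 19.9-fold higher than in lungs of UUO mice and at least 16.6-fold higher than in healthy kidneys. Anxa2, an annexin, was lower (-0.76 ± 0.29), but its ranges overlapped and it did not pass without UUO kidney 1 (-0.15, adjusted p = 0.633) or without any 1 of the lungs (adjusted p from 0.0537 to 0.119).

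**Figure D3:**
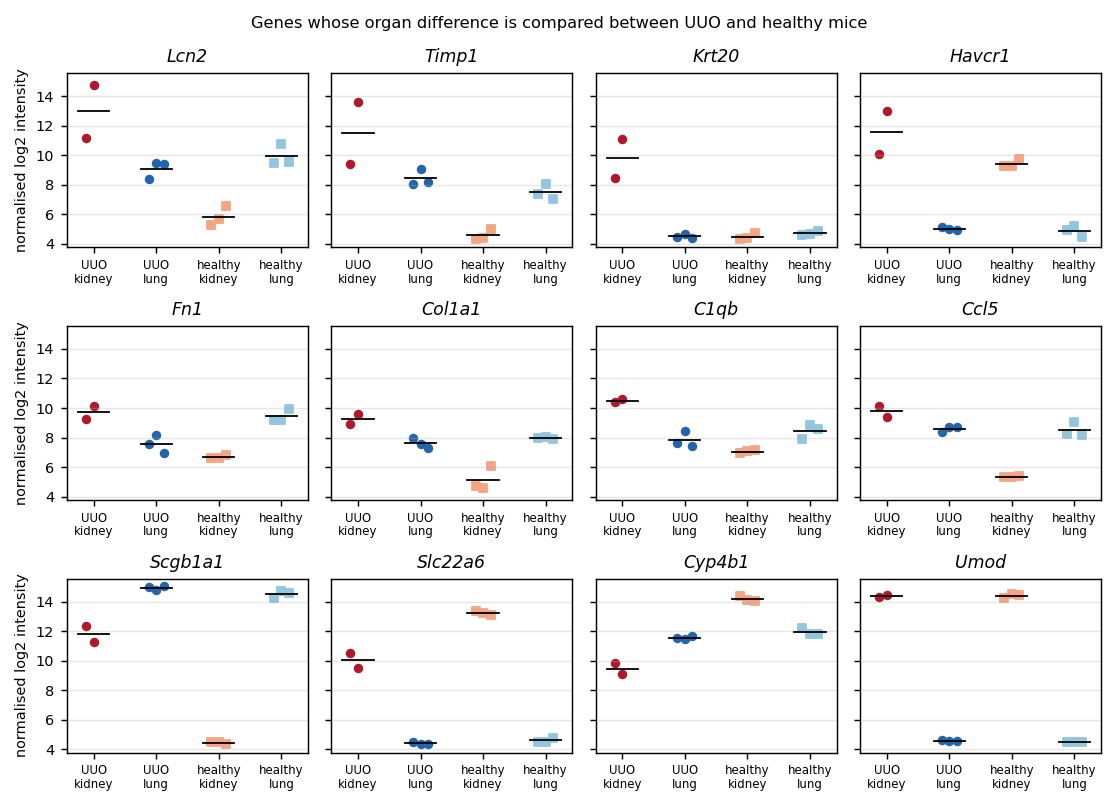
Normalised log2 intensity of 12 genes in UUO kidneys, lungs of UUO mice, healthy kidneys and healthy lungs; points are single mice and lines are group means. Lcn2, Timp1 and Fn1 are above the lungs in UUO kidneys and below them in healthy kidneys, Slc22a6 is lower in UUO than in healthy kidneys, and Umod is between 14.25 and 14.50 in all 5 kidneys.

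Cell cycle genes stood higher in the UUO kidney, with 16 of 25 higher and none lower (median 1.33), compared with 2 higher and 9 lower in healthy kidneys. Cdk1, the kinase that drives mitosis, had 7.08 and 8.22 in UUO kidneys and 4.84, 5.06 and 5.0 in lungs of UUO mice (at least 4.46-fold higher, adjusted p = 8.31e-05), with 5.16, 6.0 and 4.56 in healthy kidneys and 5.35, 5.33 and 5.42 in healthy lungs. Tk1, thymidine kinase, was higher by 2.35 ± 0.26. Of 18 immediate early genes 3 were higher and 5 lower in UUO kidneys, compared with none higher and 15 lower in healthy kidneys. Atf3, a stress-induced factor, had 9.36 and 9.77 in UUO kidneys and 5.35, 6.13 and 6.19 in lungs (3.68 ± 0.53, adjusted p = 1.15e-04), Egr2 was higher by 2.06, and Klf2 and Jun were lower (-2.81 and -1.28). Of 14 p53 targets 4 were higher and 5 lower, with Sesn2 (2.06) and Zmat3 (1.13) on the kidney side and Trp53inp1 (-1.73) and Sesn1 (-2.0) on the lung side. Of 17 endoplasmic reticulum stress genes 3 were higher and 1 lower (median -0.01, but 0.45 after median scaling), with Sdf2l1 higher (1.41) and Herpud1 lower (-0.58). Herpud1 stood at 0.01 after median scaling, and its adjusted p was 0.103 without UUO kidney 2.

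Of 27 macrophage and monocyte markers 6 were higher and 8 lower in UUO kidneys (median 0.17), compared with none higher and 18 lower in healthy kidneys (median -1.58), and 16 shifted towards the kidney by the test. C1qb, a chain of the complement component made by tissue macrophages, had 10.39 and 10.62 in UUO kidneys and 7.61, 8.46 and 7.41 in lungs of UUO mice (2.68 ± 0.35, adjusted p = 6.05e-05), with 6.97, 7.06 and 7.13 in healthy kidneys and 7.92, 8.86 and 8.59 in healthy lungs (-1.40), a change of 4.08 ± 0.47 (adjusted p = 1.23e-04). C1qc followed with 2.32 ± 0.31. In contrast Chil3, a lectin of alveolar macrophages, had 4.59 and 6.29 in UUO kidneys and 9.29, 10.81 and 9.91 in lungs (-4.56 ± 0.59). The lysozyme gene Lyz1 was also lower (-1.15 ± 0.18 by its main probe, -3.27 and -5.37 by its other probes). By the main probe it had 13.97 and 13.54 in UUO kidneys and 10.25, 10.23 and 10.71 in healthy kidneys. Of 9 class II antigen presentation genes 1 was lower and none higher in UUO kidneys, compared with 8 lower in healthy kidneys, and 7 shifted by the test. The lower one was H2-Oa (-0.88), whose ranges overlapped and which did not pass without UUO kidney 2 (adjusted p = 0.282), nor without UUO lung 1 or 2 (adjusted p = 0.0922 and 0.162).

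Lymphocyte markers were lung transcripts in UUO mice too. Of 9 T cell markers 7 were lower and 2 higher (median -1.77), 5 of 6 natural killer and cytotoxic markers were lower, and all 6 B cell markers measured were lower (median -2.23). Cd2 was at least 3.96-fold lower in UUO kidneys and Lat, a T cell adaptor, at least 2.62-fold. The killer cell receptor genes Klrd1 (-2.51) and Klre1 (at least 2.18-fold) and the B cell genes Fcmr (-2.77) and Blk (at least 2.3-fold) were lower. Cd8b1 was called higher (0.97), but a further probe of the gene gave -1.76, so its direction is not settled. Ccl5, a chemokine of T and killer cells, had 10.17 and 9.36 in UUO kidneys and 8.37, 8.72 and 8.73 in lungs of UUO mice (1.16 ± 0.31, adjusted p = 0.00837; 0.114 without UUO kidney 1), with 5.31, 5.33 and 5.38 in healthy kidneys and 8.22, 9.08 and 8.18 in healthy lungs, a change of 4.31 ± 0.42 (adjusted p = 3.79e-05). Of 17 neutrophil markers 1, Lcn2, was higher and 3 were lower in UUO kidneys than in lungs of UUO mice (median -1.12). In healthy mice none was higher and 9 were lower. Neutrophil markers also differed between the 2 UUO kidneys: of 17, 12 were more than 2-fold higher in kidney 2 and none lower. Over all 11648 tested genes 580 were more than 2-fold higher in kidney 2 and 597 lower. S100a9 had 6.15 and 11.13 in UUO kidneys and 10.57, 13.04 and 12.72 in lungs, a call (-3.47 ± 1.21) that was lost without UUO kidney 1 (-0.99, adjusted p = 0.478) or without UUO lung 2 or 3 (adjusted p = 0.0866 and 0.0829). Fpr2, a neutrophil receptor gene, was lower (-2.22 ± 0.49), and stood at -1.15 without UUO kidney 1.

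Of 30 chemokines and cytokines 13 were higher and 4 lower in UUO kidneys (median 1.07), compared with 3 higher and 14 lower in healthy kidneys. Ccl2, which attracts monocytes, had 7.30 and 6.62 in UUO kidneys and 4.61, 4.96 and 4.37 in lungs, at least 2.77-fold higher, and Cx3cl1, fractalkine, was higher by 1.85 ± 0.20, while Ccl21a, a lymphoid chemokine, was lower (-2.29 ± 0.46). Of 18 complement genes 5 were higher and 5 lower. Hc, complement component C5, had 5.33 and 5.16 in UUO kidneys and 11.37, 11.32 and 11.63 in lungs (-6.20 ± 0.35), and C6 was lower (-4.27). Of 20 interferon-stimulated genes 5 were higher and 4 lower (median -0.08, but 0.47 after median scaling), with Irf7 (0.86 ± 0.18) and Ifit2 (0.81 ± 0.19) higher and Gbp2 (-0.80) and Isg20 (-1.50) lower. Without UUO kidney 1 neither of the lower ones passed (adjusted p = 0.131 and 0.0993). Of 18 fibrinogen and acute phase genes 2 were higher and 3 lower, with haptoglobin a lung transcript (Hp 6.49 and 9.68 in UUO kidneys and 13.99, 13.58 and 14.04 in lungs, -5.79 ± 0.66) and Itih4 lower (-4.41), while the metallothionein gene Mt1 was higher (1.0, with an adjusted p of 0.375 without UUO kidney 2, and 0.135 and 0.0571 without UUO lungs 1 and 3).

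Transcripts of other tissues were checked as signs of what else the samples held. Of 15 liver transcripts none passed in either direction and 10 were at background in both UUO kidneys, but the lung of H657 (UUO lung 1) and healthy lung 3 carried them. The median level over the list was 4.87 and 4.68 in UUO kidneys, 9.83, 4.56 and 4.48 in lungs of UUO mice and 11.72 in healthy lung 3, and Rbp4, the member with the smallest adjusted p, had 4.87 and 4.68 in UUO kidneys and 7.39, 6.58 and 5.72 in lungs and did not pass (adjusted p = 0.0503). Rbp4 lay close to the threshold and was called lower in 8 of 23 other settings, with differences from -2.21 to -0.75 over the 23. Of 15 skeletal and heart muscle transcripts 5 were lower and 1, the parvalbumin gene Pvalb of the distal tubule and fast muscle (at least 52.5-fold), was higher; Actc1 had 4.83 and 5.27 in UUO kidneys and 10.54, 7.74 and 9.90 in lungs, and Myl1 was lower (-4.16, with an adjusted p of 0.0591 without UUO kidney 1). Of 7 fat and mesothelium transcripts 4 were lower, among them Msln (at least 10.5-fold) and Upk3b (-4.30), and of 7 red cell genes 5 were lower, with Hbb-b2 at -2.81 and Alas2 at -4.24. Without the 2 lungs that carried liver transcripts 5398 genes passed between the organs of UUO mice, and without the 1 bleomycin lung that carried kidney transcripts 5705 did.

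Across the tested genes the organ difference in UUO mice followed the one in healthy mice, with a Pearson correlation of 0.8108 across 11648 genes, which are not independent replicates. Of the genes called in UUO mice 75.5% were called in the same direction in healthy mice, which was 57.2% of the healthy calls: 2037 were higher in the kidney in both and 2400 lower in both. The test of the difference between the 2 organ differences called 3215 genes (27.6%), 1930 with a higher kidney minus lung difference in UUO mice (16.6%) and 1285 with a lower one (11%). That split was 60.0% higher, against 90.8% after median scaling and 46.6% when the deposited matrix was used, so which direction prevailed depended on the scaling. A total of 207 genes were called higher in the kidney in UUO mice and lower in healthy mice, and 100 the other way. All of the 207 and all of the 100 passed the test of the difference. Calls in opposite directions in the same fit make that pass nearly certain, so it adds no further support. Median scaling gave 594 and 15, and leaving out 1 sample at a time gave 155 to 297 and 71 to 106. By list, 6 of 33 matrix genes, 5 of 27 macrophage genes, 5 of 30 chemokines, 4 of 25 cell cycle genes 4 of 19 injury genes and 4 of 18 complement genes were among the 207, where 1.78% of all tested genes were. Some genes are on several of these lists.

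**Figure D4:**
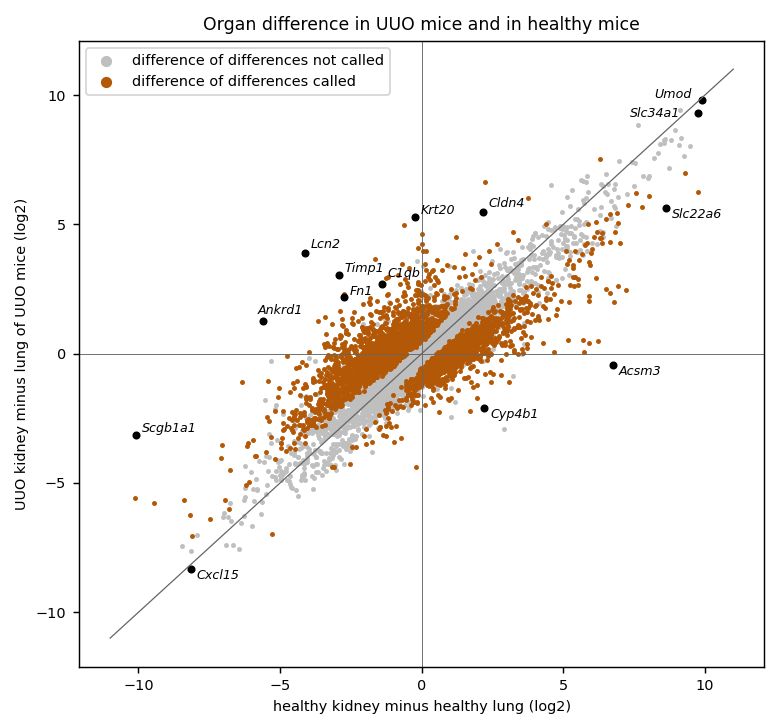
Kidney minus lung difference (log2) of each of 11648 genes in UUO mice (vertical) against healthy mice (horizontal), with genes called in the test of the difference between them in orange and the line of equal differences. Most genes lie along the line; Lcn2, Timp1, Fn1 and C1qb lie above 0 in UUO mice and below 0 in healthy mice, and Acsm3 and Cyp4b1 the other way.

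**Figure D5:**
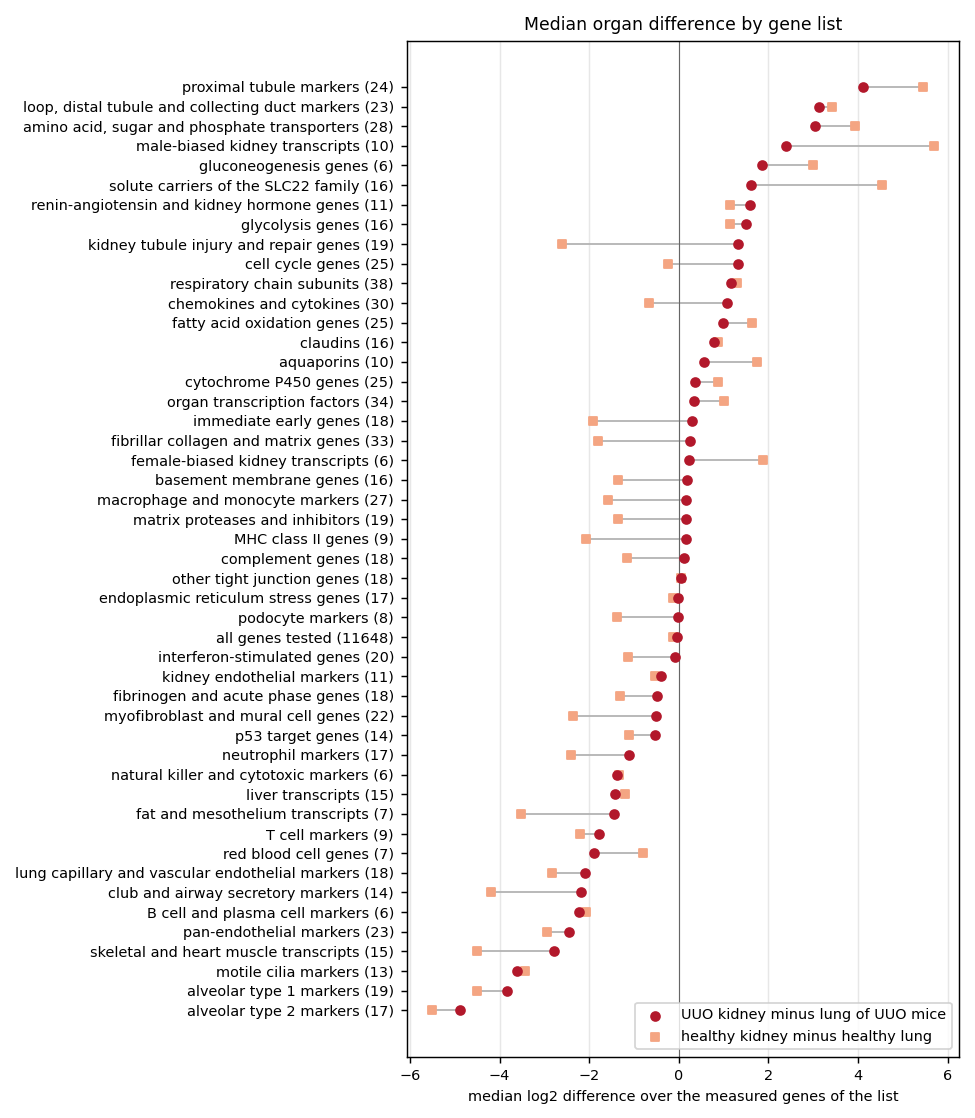
Median kidney minus lung difference (log2) of each gene list in UUO mice (red circles) and in healthy mice (pale squares), with the number of measured genes in brackets. The injury list stands at 1.33 in UUO mice and -2.60 in healthy mice, and alveolar type 2 markers at -4.89 and -5.51.

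The genes with the largest upward change were Lcn2, Scgb1a1, Ankrd1, Timp1, Serpina10, Krt20, Atf3 and Ear3. Ankrd1, a stretch-responsive cofactor, had 9.90 and 10.92 in UUO kidneys and 9.44, 8.42 and 9.63 in lungs of UUO mice, with 5.47, 5.53 and 5.75 in healthy kidneys and 11.23, 12.59 and 9.74 in healthy lungs, a change of 6.86 ± 0.88 (adjusted p = 2.17e-04). Its organ difference within UUO mice did not pass by the main probe (adjusted p = 0.132), which was called in 2 of 23 other settings. A further probe of Ankrd1 gave 2.15 (adjusted p = 0.0112), so that difference is not settled. The lungs also held muscle transcripts, with list medians of 10.86, 12.55 and 5.28 in healthy lungs and 8.77, 5.61 and 8.32 in lungs of UUO mice. The part of muscle in the Ankrd1 values was not tested. Serpina10, a clotting inhibitor made by the liver, had 10.65 and 12.24 in UUO kidneys and 8.51, 5.63 and 5.28 in lungs, and its calls were lost without UUO kidney 2 (adjusted p = 0.0522 in UUO mice and 0.105 for the change). The change was also lost without UUO lung 2 or 3 (adjusted p = 0.0536 and 0.0587), and its highest lung of UUO mice was the 1 with liver transcripts. Ear3, an eosinophil-associated ribonuclease of a family of near copies, had 10.56 and 8.82 in UUO kidneys and 4.92, 4.76 and 4.61 in healthy kidneys, a change of at least 19.3-fold, and its difference from lungs in UUO mice (-1.08) was not called without UUO kidney 2 (-0.21, adjusted p = 0.622) or without any 1 of the lungs (adjusted p from 0.0601 to 0.1). Atf3 changed by 5.33 ± 0.71 (adjusted p = 2.69e-04).

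The genes with the largest downward change were kidney transcripts of healthy mice that were low in UUO kidneys. Acsm3, an acyl-CoA synthetase gene, had 5.66 and 5.33 in UUO kidneys and 13.06, 12.94 and 12.85 in healthy kidneys, with 6.37, 7.0 and 4.45 in lungs of UUO mice and 5.04, 6.40 and 7.17 in healthy lungs, a change of -7.19 ± 0.87 (adjusted p = 1.60e-04). The P450 genes Cyp2d12 and Cyp2j13 changed by -5.17 ± 0.28 and -4.74 ± 0.32, Cyp2a4 by at least 30.8-fold, the organic anion carrier genes Slc22a30 and Slc22a28 by -5.74 ± 0.79 and -5.50 ± 0.74, Ugt8a by at least 18.2-fold and 3110040M04Rik by -4.62 ± 0.30. Several of these belong to gene families in which mouse kidneys differ between the sexes, and the healthy kidneys carried Eif2s3y where the UUO kidneys carried Xist. Of 10 male-biased kidney transcripts 6 had a lower organ difference in UUO mice and none a higher one (median change -2.24), with Kap at 11.11 and 11.61 in UUO kidneys and 13.88, 14.08 and 14.28 in healthy kidneys (change -2.30 ± 0.46, adjusted p = 0.00309) and Slc22a12 changed by -2.72 ± 0.50. Of 6 female-biased transcripts 2 had a higher and 1 a lower one, with Cyp4a14 at 11.53 and 10.69 in UUO kidneys and 7.18, 6.56 and 6.46 in healthy kidneys (change 4.43 ± 0.38) and Slc7a12 changed by 2.31 ± 0.35, while Gsta4 was a lung transcript in UUO mice (-1.14, with an adjusted p of 0.0651 without UUO kidney 2). The part of sex in these changes was not tested.

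Of 24 markers of the proximal tubule 9 had a lower organ difference in UUO mice and none a higher one (median change -1.43, against 0.07 over all genes), and of 16 SLC22 carriers 11 were lower and none higher (median change -1.83). Slc22a6 had 10.54 and 9.51 in UUO kidneys and 13.34, 13.23 and 13.12 in healthy kidneys (change -3.01 ± 0.31, adjusted p = 5.45e-05). Cyp4b1 was lower in the kidney than in the lung of UUO mice (9.83 and 9.09 in UUO kidneys, 11.51, 11.48 and 11.70 in lungs of UUO mice) and higher in the kidney of healthy mice (14.35, 14.10 and 14.03 in healthy kidneys, 12.20, 11.82 and 11.81 in healthy lungs), a change of -4.32 ± 0.29 (adjusted p = 3.21e-06). Slc34a1 and Umod did not pass the test of the change (adjusted p = 0.783 and 0.959), with standard errors of 1.10 and 1.21. These standard errors also take in the spread of the bleomycin lungs, 1 of which carried kidney transcripts. A fit without that lung was run and its counts of called genes are given below, but its standard errors for these changes are not given here. Umod was nearly equal in all UUO and healthy kidneys. Of 23 markers of the loop, distal tubule and collecting duct 3 changed upwards and 2 downwards, with Aqp2 at -1.43 ± 0.36, of 25 fatty acid oxidation genes 1 and 7, with Ehhadh at -1.65 ± 0.35, and of 38 respiratory chain subunits none and 1. The median change of the fatty acid list was -0.50, but 0.06 after median scaling.

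By the number of genes that differed, the 2 UUO kidneys were further apart than any pair of lungs of UUO mice, of healthy kidneys or of healthy lungs. In all 1177 genes (10.1%) differed by more than 2-fold between them, compared with 434 to 807 between lungs of UUO mice, 225 to 271 between healthy kidneys, 245 to 821 between healthy lungs and 478 between the 2 arrays of 1 lung. UUO kidney 2 (H658) had higher injury genes (median 1.47 over 19) and neutrophil markers (median 2.98 over 17) than UUO kidney 1 (H656), and lower proximal tubule markers (median -1.12 over 24) and class II genes (median -1.10 over 9). S100a8, which encodes a neutrophil protein, was at 6.68 and 12.05 in UUO kidneys 1 and 2, the cornified envelope gene Sprr2f at 5.82 and 10.87, the activin subunit gene Inhba at 5.98 and 10.82 and the fibrinogen gene Fgg at 5.94 and 10.23. The tyrosine catabolism gene Hpd was at 9.65 and 6.92 and Bsnd, a chloride channel subunit of the distal tubule, at 10.84 and 8.16. These are the extremes among genes above background in both kidneys and were chosen for this difference. The median difference between UUO kidneys 2 and 1 was 0.03 over 16 claudins, of which 2 were more than 2-fold higher in kidney 2, 0.01 over 18 other tight junction genes and -0.01 over all genes. Of all 11648 tested genes 580 were more than 2-fold higher in kidney 2.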

How the data were processed

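Total RNA, extracted with TRIzol and amplified to biotinylated cRNA, was hybridised to Illumina mouse arrays, 1 colour, per the labels' protocols. The authors deposited probe intensities that were not normalized, with a detection p-value per probe, and a matrix of processed intensities whose scaling is not stated. GenomeStudio 5.0 is named in the submitters' processing notes. The deposited intensities were background-corrected with limma's neqc (limma 3.58.1, R 4.3.3; offset 16, control level inferred from the detection p-values), quantile-normalized over 15 arrays and put on the log2 scale, and the 2 arrays of 1 lung were averaged. Of 45281 probes, 34885 had 1 gene symbol in the platform annotation, 18 several and 10378 none. A probe was kept when 2 or more samples had a detection p under 0.01 (21048 probes, 46.5%), and each of 11648 genes was represented by its brightest probe on average. Among genes called between the organs of UUO mice, 84.6% of 3442 other probes agreed in direction with the main probe. A model of 5 group means was fitted with lmFit and eBayes, with Benjamini-Hochberg adjustment over all genes and a threshold of 0.05; the scripts were tested on simulated data. "At background" means a detection p of at least 0.05 in every sample of a group, and a bound takes the lowest signal among probes above background as the dim level. Nothing states more than 1 mouse per sample or separate days, so p-values measure the spread between mice, pooled over the 5 groups. Between the 2 UUO kidneys 1177 genes differed by more than 2-fold, against 225 to 271 between pairs of healthy kidneys. The pooled spread may therefore understate that of the UUO kidneys. The deposited matrix ranks probes as the intensities do (rank correlation at least 0.99999237), with 47.73% of its values under the floor of 16 used for it. One label field of healthy kidney 1 names lung as the tissue, whereas its title and its tubule markers are those of kidney. Residual correlations between kidney and lung of the same mouse were -0.122 to 0.185 over 4 mice. Residuals from group means of 2 or 3 samples are bound to one another, so they cannot show whether the organs of a mouse deviated together. The main fit used no pairing.

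The members, gene lists and tests were chosen with earlier results of these data known. Genes were named by rule: the 10 largest and 10 smallest differences that passed without overlap, the 8 largest and 8 smallest changes between UUO and healthy mice, up to 2 members per list and direction with the smallest adjusted p, the largest transcription factors, all measured claudins, and a short set of marker genes of each organ. One gene of that set is not reported here. The other genes are said to be chosen after their values were seen. Promoters are from RefSeq (GRCm38.p6).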

Additional observations from a re-analysis of the deposited data

Results flagged for a closer look

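The test of whether the kidney minus lung difference was the same in UUO and in healthy mice passed for 3215 genes, and among the genes named above for the following. The values are fitted log2 changes, UUO mice minus healthy mice, so that a positive one means further towards the kidney in UUO mice. Where a gene was at background in a group the fitted value is no bound, and the bound stands with the gene above. All of them set mice with Xist against mice with Eif2s3y, so that obstruction and sex cannot be told apart, and the healthy kidneys and lungs include 1 lung with liver transcripts.

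Among injury and stress genes the change was 8.0 for Lcn2, 5.53 for Krt20, 2.30 for Anxa2, 5.33 for Atf3, 2.95 for Egr2, 1.43 for Jun, 1.95 for Klf2, 6.86 for Ankrd1, 2.81 for Cdk1, 0.88 for Zmat3 and 5.59 for Serpina10. In matrix, basement membrane and stroma it was 4.94 for Fn1, 4.51 for Col1a1, 3.75 for Thbs2, 2.20 for Col18a1, 2.56 for Col6a1, 1.38 for Eln, 1.82 for Lamb1, 1.05 for Lamc1, -0.94 for Lama1, 2.32 for Acta2, 4.82 for Thy1, 1.59 for Pdgfra, 2.23 for Mcam and 3.91 for Nes. Protease genes and their inhibitors changed by 5.98 (Timp1), 1.48 (Timp2), 4.62 (Adamts4) and 1.02 (Plau).

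Immune genes moved towards the kidney for the most part, with 4.08 for C1qb, 3.52 for C1qc, 3.39 for Lyz1, 5.26 for Ear3, 4.31 for Ccl5, 2.39 for Ccl2, 1.86 for Cx3cl1, 2.69 for Fpr2, 1.21 for Fcmr, 2.34 for Irf7, 1.78 for Ifit2 and 1.92 for Gbp2, whereas Klre1 changed by -1.23 and Cd8b1, whose probes disagreed, by -0.82. Endothelial genes Cdh5, Pecam1, Emcn and Dram1 changed by 1.33, 1.01, 0.97 and 0.80, and Ace by -1.73. Claudins Cldn4, Cldn3, Cldn1 and Cldn6 changed by 3.30, 2.41, 2.23 and 1.83, and Cldn10 by -1.58.

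Lung genes changed by 6.92 (Scgb1a1), 3.66 (Sftpc), 1.05 (Sftpb), 2.69 (Slc34a2), 1.93 (Ager), 1.10 (Aqp5), 1.14 (Tppp3), 1.03 (Foxf1), 0.81 (Tbx4) and -1.71 (Sec14l3). Kidney transport and metabolism genes changed by -7.19 (Acsm3), -5.74 (Slc22a30), -5.64 (Cyp2a4), -5.50 (Slc22a28), -5.17 (Cyp2d12), -4.79 (Ugt8a), -4.74 (Cyp2j13), -4.62 (3110040M04Rik), -4.32 (Cyp4b1), -3.01 (Slc22a6), -2.72 (Slc22a12), -2.30 (Kap), -1.87 (Slc22a19), -1.65 (Ehhadh), -1.43 (Aqp2), -1.36 (Kl) and -1.24 (Slc5a12), and by 4.43 (Cyp4a14), 2.31 (Slc7a12) and 0.92 (Scnn1a) in the other direction.

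Calls of Kl, Scnn1a, Lama1, Dram1 and Emcn were each lost in 8 to 10 of the 11 fits that left out 1 UUO or healthy sample, those of Tppp3, Eln, Aqp5 and Cd8b1 in 2 to 5 of them and that of Zmat3 in 1 (without UUO kidney 2, adjusted p = 0.0761). Without UUO kidney 2 the change of Kl was -0.54 (adjusted p = 0.119), and that of Acta2 was 2.04 (adjusted p = 0.0536). Without UUO kidney 1 the change of Scnn1a was 0.48 (adjusted p = 0.207), that of Aqp5 0.68 (adjusted p = 0.115) and that of Tppp3 0.82 (adjusted p = 0.129). Without UUO kidney 2 the changes of Timp1, Adamts4, Fpr2, Slc22a12 and Slc5a12 were 3.88, 2.71, 1.63, -1.79 and -0.76, all of which passed. No group of these samples had 4 or more members, so single samples were not tested against the rest of their group.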

How the results depend on the processing

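The count of genes that differed between UUO kidneys and lungs of UUO mice stayed within 1.5 times 5874 under every alternative run except a test against a 2-fold change, which gave 1363 genes (2839 in healthy mice and 360 for the difference of organ differences). Testing every probe gave 11871 calls in healthy mice and 4997 for the difference. Within that band the lowest counts in UUO mice were 4410, when only the groups compared were normalized and fitted, and 4677 with array weights. In the same 2 settings healthy mice gave 7977 and 8547 genes and the difference 3142 and 2801. Leaving out 1 replicate at a time gave 5028 to 5671 genes in UUO mice, 7140 to 7446 in healthy mice and 2585 to 3647 for the difference. The share called higher in healthy kidneys was 44.7%, against 35.7% after median scaling and 64.7% when the deposited matrix was used (medians -0.30 and 0.32). With the replicate number as a block 5629, 7703 and 2980 genes passed; the numbers mostly join different mice (same-numbered kidney and lung residuals from different mice correlated at -0.15 to 0.169), so they are no pairing. With the mouse as a random block 5940, 7924 and 3412 passed. Chosen after seeing the data, fits without the bleomycin lung that held kidney transcripts gave 5705, 7675 and 3019 genes, and without the 2 lungs that held liver transcripts 5398, 7481 and 2762. Differences in UUO mice that changed sign were not called with the changed sign. Among them Herpud1 was called and stood at 0.01 after median scaling (adjusted p = 0.963), while Cyp2a4 was called in 2 other settings (0.80, lowest adjusted p = 0.0048, without UUO lung 1) and Cldn10 in 1 (1.01, adjusted p = 0.0186, after median scaling). Cyp2a4 stood at -0.04 with no background correction, -0.03 with an offset of 50, 0.00 with the replicate block, and -0.16, -0.36 and -0.20 without UUO kidney 1, UUO lung 2 and UUO lung 3 (range over the samples left out -0.36 to 0.80). Cldn9 stood at 0.19 after median scaling, 0.28 with the matrix values and 0.00 with array 2 of UUO lung 2 alone. Acsm3 stood at 0.16 with array weights, 0.12 with array 2 alone and 0.09 without UUO lung 2 (range -1.19 to 0.09), Cldn10 at -0.07 without UUO kidney 1 (range -0.07 to 0.86) and Cldn15 at -0.08 without UUO lung 3 (range -0.08 to 0.47). For the 182 genes named in the first comparison 150 of their alternatives lost the call and 28 gained it; for the 83 named in the difference 171 lost it. The cause of these shifts was not tested. Each gene is represented by 1 probe, and of genes called in UUO mice a further probe of Ace (-0.20), Chil3 (-0.71), Cyp2b10 (-0.07), Eln (-0.21), Fn1 (0.18), Klk1b5 (0.31) and Tfap2b (0.33) did not pass, nor did one of Actc1, Anxa2, Ear3, Gbp2, Herpud1, Ifit2, Myl1, Pgk1 or Sesn1. With 2 UUO kidneys, the number of arrays limits the precision, and genes near background have only bounds.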
